A study of Mus musculus with 20 samples.

Results

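Orphan G protein-coupled receptors named Gpr with a number, together with the adhesion receptors named Adgr, were followed in mouse microglia that carried the V600E form of Braf. The members were all protein-coding genes whose GRCm38 symbol starts with Gpr and a digit or with Adgr, which gave 100 of the 55487 gene identifiers in the count table, 73 Gpr and 27 Adgr genes. The rule uses the symbol and biotype alone. Another 4 genes with matching symbols were not protein-coding and were left out.

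The study sequenced RNA of microglia labelled as coming from cortex and from brainstem of 10 mice, 1 library per region and mouse, at 2 months and at end-stage. The cross carried Cx3cr1-CreER and Braf LSL-V600E alleles, and all litters had 1 injection of 37.5 mg per kg 4-hydroxytamoxifen into the pregnant mother at embryonic day 9.5, so that Cre acted in Cx3cr1-expressing progenitors. At 2 months the mutants were M2617, M2621 and M2624 (Braf VE; CX3 HET), and the controls were M2618, M2629 and M2633 (Braf WT; CX3 HET). At end-stage the mutants were M1376 and M1524 (Braf VE; CX3 HET). The end-stage controls were of unlike kinds, M1375 with the Braf allele and no Cre allele (Braf VE; CX3 WT) and M1521 with the Cre allele and wild-type Braf (Braf WT; CX3 HET). Neither the age at end-stage nor the way the cells were sorted is given in the sources used here.

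Mouse numbers at 2 months conflict within the records. For 5 of the 6 mice the number in the sample's title differed from the number in the name of its count column. Genotype is given here by the column number, which for 4 mice is the opposite of the genotype in the sample's own record. Every 2-month genotype result below rests on that reading, and the values under the record's reading stand beside the results. Cx3cr1, the gene that carries CreER, was at 5777 CPM (brainstem-labelled) and 4400 CPM (cortex-labelled) in M1375, the mouse without a Cre allele, and between 998 and 2854 CPM in the other 18 libraries. The region labels also have a doubt: the summed level of 6 Hox genes typical of brainstem tissue was lower in the brainstem-labelled library of 9 of 10 mice, at 0.108 to 1.13 CPM in brainstem-labelled against 0.327 to 3.76 CPM in cortex-labelled libraries. Regions are therefore named by label only.

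Deposited counts per library summed to between 9395203 and 21171114, so that 3 counts, the upper limit a count of 0 allows, came to 0.147 to 0.318 CPM (counts scaled to a common library total). Microglial markers (Tmem119, P2ry12, Sall1, Csf1r, Fcrls and Siglech) summed to 16607 to 41111 CPM, with none at 0. Neutrophil markers summed to at most 4.5 CPM. Replicates within a group are separate mice by their numbers. The spread was estimated over all 20 libraries, with the 2 libraries of a mouse taken as independent. The region and genotype by region p-values of that fit thus leave the pairing out, and counts with mouse as a replicate block stand in the closing section.

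Receptors of this family have a membrane-spanning core and pass a signal through heterotrimeric G proteins. RGS proteins shorten that signal, and receptor kinases with arrestins end it. Orphan receptors were named before a ligand was known, and several have since been tied to lipids, oxysterols, metabolites or protons. Adhesion receptors carry a long extracellular part that is cleaved from the core and binds matrix or neighbouring cells. In microglia, Gpr34, a receptor for lysophosphatidylserine, and Adgrg1, a receptor for collagen and transglutaminase, belong to the genes by which the resting cell is recognised.

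The promoters of 6 of the members that differed between genotypes in cortex-labelled libraries are shown first, as the regulatory sequence next to the changes described below. Each runs from 250 bases before to 50 after a transcription start in RefSeq (GRCm38.p6), 5′ to 3′ on the gene's strand. Capitals mark GAGGAA (the core bound by PU.1 and other ETS factors), TATAAA (the TATA box) and TGANTCA (the AP-1 site), searched on both strands. Gpr35 has 2 starts in the table, and the one with matches is shown.
Gpr165, chrX:96713218-96713517, plus strand: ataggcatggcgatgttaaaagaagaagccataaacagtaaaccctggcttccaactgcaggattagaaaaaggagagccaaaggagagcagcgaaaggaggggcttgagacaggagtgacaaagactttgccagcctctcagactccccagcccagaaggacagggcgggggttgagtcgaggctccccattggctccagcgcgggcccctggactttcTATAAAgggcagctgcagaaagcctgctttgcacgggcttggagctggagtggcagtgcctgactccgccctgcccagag
Gpr183, chr14:121965144-121965443, minus strand: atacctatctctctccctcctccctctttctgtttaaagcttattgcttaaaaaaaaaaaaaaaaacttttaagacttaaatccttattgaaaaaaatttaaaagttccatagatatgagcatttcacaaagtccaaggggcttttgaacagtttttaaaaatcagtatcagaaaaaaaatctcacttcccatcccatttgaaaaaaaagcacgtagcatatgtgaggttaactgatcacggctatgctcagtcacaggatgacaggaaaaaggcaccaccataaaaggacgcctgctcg
Gpr18, chr14:121915839-121916138, minus strand: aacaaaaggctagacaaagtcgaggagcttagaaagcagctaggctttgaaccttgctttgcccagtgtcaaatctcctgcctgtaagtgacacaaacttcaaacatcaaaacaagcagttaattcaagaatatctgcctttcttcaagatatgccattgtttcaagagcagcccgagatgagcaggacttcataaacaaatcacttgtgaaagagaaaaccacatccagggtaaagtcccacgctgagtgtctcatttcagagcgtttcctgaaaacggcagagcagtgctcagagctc
Gpr84, chr15:103310389-103310688, minus strand: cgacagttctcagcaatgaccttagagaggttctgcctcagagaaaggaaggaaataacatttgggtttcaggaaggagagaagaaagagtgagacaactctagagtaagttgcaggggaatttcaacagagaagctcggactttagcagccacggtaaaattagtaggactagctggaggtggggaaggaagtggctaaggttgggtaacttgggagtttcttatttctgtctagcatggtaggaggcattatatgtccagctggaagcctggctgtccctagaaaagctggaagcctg
Gpr35, chr1:92978653-92978952, plus strand: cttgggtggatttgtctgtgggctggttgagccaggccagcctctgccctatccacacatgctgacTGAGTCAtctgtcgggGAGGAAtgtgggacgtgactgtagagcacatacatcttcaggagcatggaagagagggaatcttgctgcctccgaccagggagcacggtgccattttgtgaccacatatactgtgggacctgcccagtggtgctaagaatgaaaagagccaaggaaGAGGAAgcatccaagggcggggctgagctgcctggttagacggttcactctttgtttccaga
Gpr83, chr9:14859960-14860259, plus strand: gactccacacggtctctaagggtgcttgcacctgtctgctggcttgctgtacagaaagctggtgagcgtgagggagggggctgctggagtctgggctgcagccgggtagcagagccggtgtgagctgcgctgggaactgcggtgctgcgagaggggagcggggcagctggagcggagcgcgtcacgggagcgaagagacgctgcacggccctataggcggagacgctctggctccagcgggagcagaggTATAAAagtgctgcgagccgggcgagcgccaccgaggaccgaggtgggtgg

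Among these 6 windows, Gpr165 and Gpr83 each held 1 TATAAA, and the Gpr35 window held 2 GAGGAA and 1 TGANTCA. The windows of Gpr183, Gpr18 and Gpr84 held none of the 3 motifs. Gpr155, also called in cortex-labelled libraries, is not shown, and its listed window held none of them either. No promoter was listed for Gpr34. GAGGAA stood in 28.3% of all 32851 RefSeq promoters and in 15 of the 48 listed for 37 tested members (31.2%). TATAAA stood in 13.6% of all promoters and in 7 of those 48 (14.6%). TGANTCA stood in 7.81% of all promoters and in 5 of those 48 (10.4%). A match is a letter pattern only and was not tied to binding of a factor.

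Few of the receptors were present in these cells. No read was counted for 9 of the 100 members in any library (among them Gpr6, Gpr142, Gpr139, Adgrg7, Adgrf5, Gpr119, Gpr50 and Gpr174), 44 had some counts but were too low to test, and 47 were kept for testing, 37 Gpr and 10 Adgr genes. At a level of 1 CPM, 19 members were found in all 20 libraries and 55 in none. A library held between 25 and 33 members at that level, with a median of 28.

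Levels were concentrated in a handful of genes. Gpr34 took 37.3% of all counts on members and Adgrg1 took 22.2%. Adgre1, the surface antigen by which mouse macrophages are commonly stained, took 8.63%, and Gpr183, a receptor for hydroxylated cholesterol, took 8.23%. Per length of transcript the order was close to this, with mean levels of 1013 RPKM for Gpr34, 234 for Adgrg1, 161 for Gpr183, 152 for Adgre1 and 103 for Gpr84, a receptor for medium-chain fatty acids. The summed level of all members was 4208 to 7441 CPM in brainstem-labelled libraries and 3704 to 6528 CPM in cortex-labelled ones. It lay at 3704 to 4504 CPM in the 5 cortex-labelled mutants and at 5827 to 6528 CPM in the 5 cortex-labelled controls.

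By role, the 27 adhesion genes split sharply. All 3 members of the E group were tested, with Adgre1 at 336 to 822 CPM and the related Adgre4 and Adgre5 at no more than 5.95 and 4.65 CPM. Of the exons of Adgre5, 23.8% overlap Ddx39 on the other strand, and the strand setting of the counting is not known. In the G group Adgrg1 ranged from 668 to 1837 CPM, Adgrg5 from 0 to 132 CPM and Adgrg3 from 0 to 1.57 CPM, and the other 4 were not tested. These 3 tested genes lie side by side on chromosome 8 with gaps of 31.5 and 3.5 kb. Among latrophilins, receptors for teneurins, Adgrl2 reached 86.3 CPM and Adgrl1 9.67 CPM, and the other 2 were not tested. In the A group Adgra3 was found in every library at 4.03 CPM or more, Adgra2 was tested but low, and Adgra1 was not tested. None of the B group (3 genes), the F group (5 genes), Adgrd1 or Adgrv1 was tested.

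Of the 10 receptors linked to lipids and related metabolites, 7 were tested: Gpr34, Gpr183, Gpr84, Gpr35, Gpr18, Gpr132 and Gpr31b. Together the lipid-linked group held 49.4% of the member counts. Gpr174 and Gpr119 had no count in any library, and Gpr55 had 1 count in all. All 8 members that sit on internal membranes or are not classical receptors were tested, and they held 11.9% of member counts. They were Gpr155 (a cholesterol sensor of the lysosome), Gpr107 and Gpr108 (of the Golgi), Gpr137, Gpr137b and Gpr137c (of the lysosome), Gpr180 and Gpr89. All 3 proton sensors were tested, but only Gpr65 was above 1 CPM in most libraries, in 16 of 20. Of the 3 receptors that raise cAMP without a ligand, Gpr3 was tested at a low level, and Gpr6 and Gpr12 were not. The 49 remaining Gpr genes had 18 tested members and 6.10% of member counts, led by Gpr146 at 113 to 244 CPM and Gpr160 at 46.4 to 123 CPM. For 33 of those 49 no library reached 1 CPM.

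**Figure D1:**
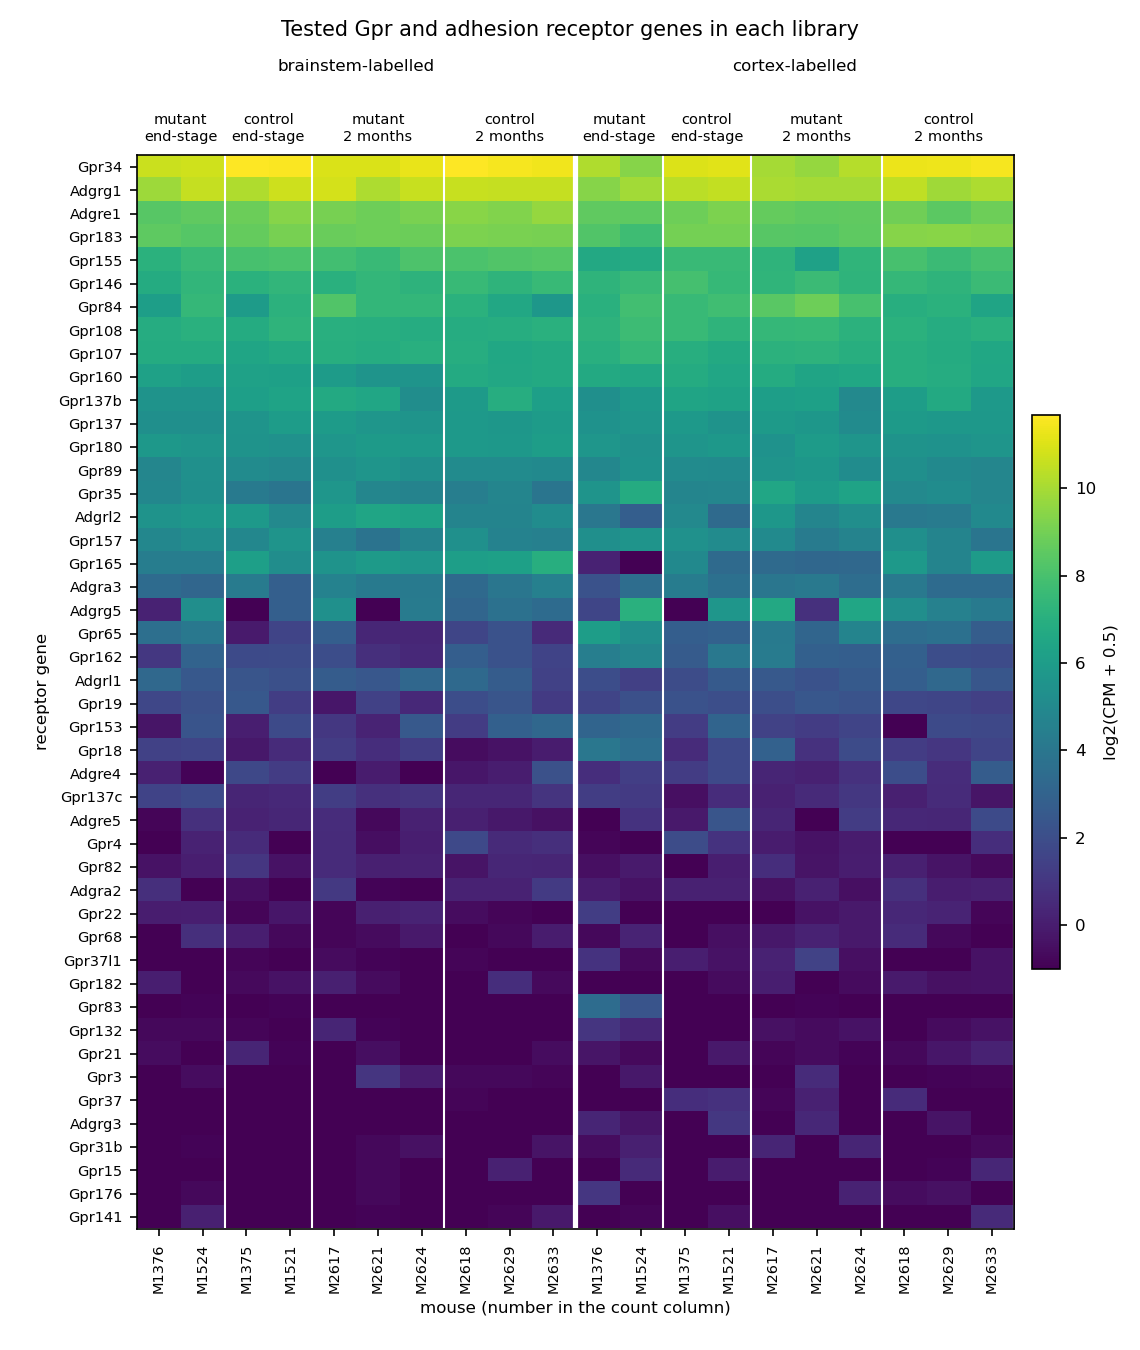
Heat map of log2(CPM + 0.5) for 46 of the 47 tested members (rows, by mean level) in the 20 libraries (columns, by region label, stage and genotype). Gpr34 and Adgrg1 are the 2 highest in every library, Gpr165 darkens to 0.654 and 0 CPM in the end-stage cortex-labelled mutants, and Adgrg5 is dark in both libraries of M1375, M1376 and M2621.

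Adgrg5, an adhesion receptor without an established ligand, varied widely between mice of the same group. It was at 0 to 2.67 CPM in both libraries of mutants M1376 and M2621 and of control M1375. In the other 7 mice it was at 6.74 to 41.1 CPM in brainstem-labelled and 17.8 to 132 CPM in cortex-labelled libraries. Among these 7, cortex-labelled mutants were at 88.9 to 132 CPM and controls at 17.8 to 50.5 CPM. Brainstem-labelled mutants were at 19.2 to 41.1 CPM and controls at 6.74 to 13 CPM. The 7 mice were picked by level, and a difference within them was not tested. Over all mice, mutants and controls lay on both sides, and none of the 4 genotype differences of Adgrg5 passed the test.

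Region label was the comparison with the most calls. Over all genes, 14% passed the test of brainstem-labelled minus cortex-labelled libraries (6.51% higher and 7.53% lower in brainstem-labelled). Of the 47 tested members 15 passed (31.9%), 7 higher and 8 lower. The median log2 difference was -0.23 over members and -0.01 over all genes. Tests are edgeR's quasi-likelihood test with Benjamini-Hochberg adjustment over 16595 genes.

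Gpr165, an orphan receptor, had the largest rise in the brainstem-labelled libraries. It had 20.5 to 122 CPM (median 54.7) in the 10 brainstem-labelled libraries and 0 to 61.8 CPM (median 10.1) in the 10 cortex-labelled ones. It was higher in the brainstem-labelled library of all 10 mice (log2 difference 2.64 ± 0.28 SE, adjusted p = 1.46e-05 by edgeR). The ranges of the regions overlap, but within a mouse the direction was the same.

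Gpr34 had 1626 to 3285 CPM (median 2604) in brainstem-labelled libraries and 655 to 2915 CPM (median 1637) in cortex-labelled ones, higher in brainstem-labelled in 9 of 10 mice (log2 difference 0.67 ± 0.10 SE, edgeR adjusted p = 0.000315). The exception was control M2633, with 2746 CPM in its brainstem-labelled and 2915 CPM in its cortex-labelled library. Adgrl2 was higher in brainstem-labelled libraries in 10 of 10 mice (26.0 to 86.3 against 6.50 to 52.8 CPM, log2 difference 1.16 ± 0.22 SE). Gpr155 was also higher in 10 of 10 mice, by 0.58 ± 0.12 on the log2 scale. Adgrg1 and Adgre1 were higher by 0.38 ± 0.12 and 0.29 ± 0.09 (edgeR adjusted p = 0.0462 and 0.0406), in 9 and 8 of 10 mice. Leaving out single mice ended the calls of Adgrg1 and Adgre1 (7 of the 10 mice each, with log2 differences of 0.32 to 0.43 and 0.24 to 0.33).

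The members that were lower in brainstem-labelled libraries were mostly low in level. Gpr65, the proton sensor, had 0.429 to 16.6 CPM (median 2.57) in brainstem-labelled and 6.28 to 65.2 CPM (median 11.6) in cortex-labelled libraries, lower in brainstem-labelled in all 10 mice (log2 difference -2.17 ± 0.41 SE, edgeR adjusted p = 0.00182). Gpr18, a receptor for which lipid amides have been proposed as ligands, had 0.170 to 2.55 CPM in brainstem-labelled and 0.953 to 15.9 CPM in cortex-labelled libraries (log2 difference -1.98 ± 0.34). Gpr35, to which tryptophan metabolites and lysolipids have been assigned, had 14.5 to 49.4 CPM in brainstem-labelled and 26.7 to 111 CPM in cortex-labelled libraries (log2 difference -0.94 ± 0.17). Both were lower in the brainstem-labelled library of all 10 mice.

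Gpr162 was lower in brainstem-labelled libraries in 9 of 10 mice, at a median of 3.14 against 6.96 CPM. Gpr160 and Gpr108 were lower by small amounts, -0.48 ± 0.09 and -0.35 ± 0.09 on the log2 scale, and the Gpr108 call was lost without M1375 (-0.26). The remaining 2 calls were near the counting limit. Adgrg3 had no count in any brainstem-labelled library and 0 to 1.57 CPM in cortex-labelled ones, at least 22-fold lower in brainstem-labelled with 3 counts over the group as the floor. Gpr37l1 had at most 0.146 CPM in brainstem-labelled and 2.31 CPM in cortex-labelled libraries. Both genes passed the low-count filter through cortex-labelled libraries alone, so their p is not independent of the filter. Leaving out single mice ended the call of Adgrg3 for 6 of 10 and that of Gpr37l1 without M1376, M1521 or M2633. With the genotypes of the sample records in the model, 9 of the 15 passed, and Gpr34, Gpr160, Adgrg3, Adgre1 and Adgrg1 were among those that did not.

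Markers of other cells moved with region label. Summed oligodendrocyte markers were 48.8 to 94.8 CPM in brainstem-labelled and 78.0 to 156 CPM in cortex-labelled libraries, lower in brainstem-labelled in 10 of 10 mice. Summed astrocyte markers (191 to 1511 against 132 to 1140 CPM), endothelial markers (40.8 to 116 against 13.3 to 63.3 CPM) and T and NK cell markers (8.76 to 78.6 against 0 to 17.1 CPM) were higher in the brainstem-labelled library in 10 of 10 mice. Each of these sums rested mainly on 1 gene, Slc1a3, Pecam1 and Klrd1 in that order. Other markers of astrocytes and endothelium went the other way. Gfap (0 to 1.46 against 0.0684 to 11.4 CPM) was lower in the brainstem-labelled library of 10 of 10 mice, Aldoc of 8 and Flt1 (0 to 3.90 against 0 to 31.4 CPM) of 7. Summed monocyte markers were lower in the brainstem-labelled library of 9 of 10 mice, and those of border macrophages and of oligodendrocyte precursors in 8 of 10 each. Among the monocyte markers, Ms4a4c was lower in 10 of 10 mice and Ly6c2 lower in 4 and higher in 1. Plac8 was lower in 5 and higher in 5, and Ccr2 was higher in 8 and lower in 2. The microglial markers themselves summed to 25745 to 41111 CPM in brainstem-labelled and 16607 to 27927 CPM in cortex-labelled libraries, higher in brainstem-labelled in 10 of 10 mice. In bulk RNA fewer cells of a type and less RNA per cell cannot be told apart, and the part of these cells in the region differences was not tested.

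**Figure D2:**
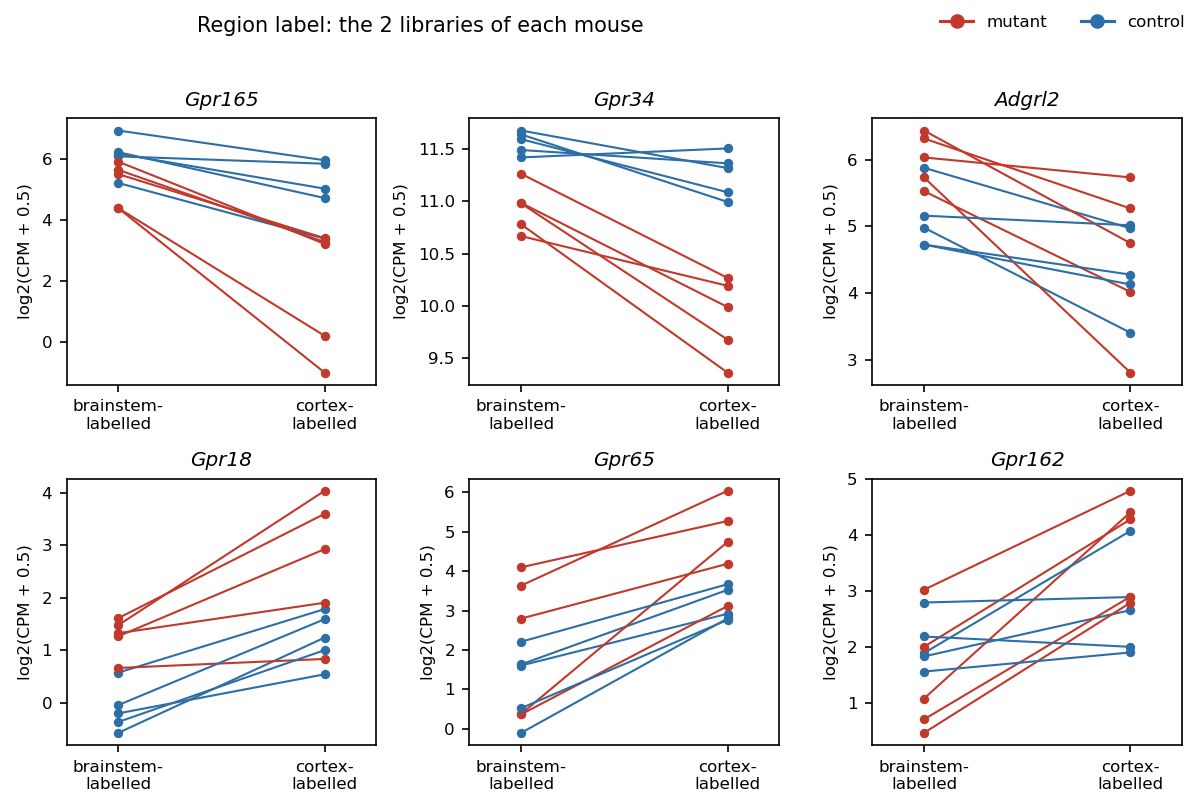
The 2 libraries of each mouse joined by a line, brainstem-labelled left and cortex-labelled right, as log2(CPM + 0.5), for 3 members higher (top) and 3 lower (bottom) in brainstem-labelled libraries. All 10 lines fall for Gpr165 and Adgrl2, 9 fall for Gpr34, and all 10 rise for Gpr18 and Gpr65.

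Few stage differences passed the test, and those of members were in cortex-labelled mutants. End-stage minus 2-month controls gave no call over all genes under either region label (0% and 0%), while 1432 and 1367 genes had an unadjusted p under 0.05, 4 and 2 of them members. DESeq2 called no member in either. The 3 members with the smallest p in cortex-labelled controls were Gpr165 at 21.1 ± 15.7 against 48.3 ± 19.5 CPM, Gpr108 at 172 ± 24.2 against 129 ± 11.3 CPM and Gpr22 at 0 against 0.529 ± 0.405 CPM (end-stage against 2 months, SD, n = 2 and 3). In brainstem-labelled controls they were Gpr180 at 43.6 ± 2.22 against 59.5 ± 6.94 CPM, Gpr160 at 74.7 ± 3.29 against 102 ± 4.98 CPM and Adgra2 at 0.0918 ± 0.130 against 1.03 ± 0.626 CPM.

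In cortex-labelled mutants 1.84% of all genes passed the stage test, and 2 of 47 members did (4.26%). Gpr165 fell to 0.654 and 0 CPM (12 counts and 0 counts) in end-stage mutants, against 10.1, 8.82 and 9.21 CPM in 2-month mutants (log2 difference -4.72 ± 0.74 SE, edgeR adjusted p = 0.00249). The groups are far apart, and the call held without each mouse in turn and by the sample records (adjusted p = 0.00543), but not when the 2 groups were fitted alone (edgeR adjusted p = 0.0539). Gpr83, a peptide receptor known from brain and regulatory T cells, was at 10.7 and 4.49 CPM in the end-stage mutants, against 0, 0.0513 and 0 CPM in the 2-month mutants (edgeR adjusted p = 0.0106). Its 197 and 69 counts stand against a single count in the 2-month group, and the call was lost without M1376, M2621 or M2624, while it held by the sample records (adjusted p = 0.0149). Gpr83 passed the low-count filter only through these end-stage libraries, so its p is not independent of the filter. Adgrl2 was at 11.1 ± 6.50 CPM in end-stage and 39.1 ± 13.2 CPM in 2-month cortex-labelled mutants (SD, n = 2 and 3) and did not pass (adjusted p = 0.0567). Microglial markers also summed lower in the end-stage cortex-labelled mutants (16607 to 22517 against 25202 to 26599 CPM). So did monocyte markers (29.4 to 83.5 against 151 to 196 CPM). Border macrophage markers (9.48 to 12.9 against 1.04 to 3.40 CPM) and those of oligodendrocyte precursors (37.3 to 88.1 against 0.428 to 3.09 CPM) summed higher. Tmem119 (4153 and 7377 against 8722 to 10213 CPM) and P2ry12 (1933 and 1046 against 2260 to 3491 CPM) were lower in both end-stage mutants. The other listed microglial markers overlapped, Csf1r (8507 and 12405 against 10596 to 11604 CPM) among them. The precursor rise was nearly all from Cspg4 (37.0 and 87.8 against 0.122, 0 and 2.37 CPM), and Sox10 and Olig1 did not rise. The monocyte fall rested mainly on Plac8 and Ms4a4c. Ccr2 was at 2.02 CPM in both end-stage mutants, against 1.28, 1.49 and 1.24 CPM in the 2-month mutants. The part of these markers in the stage differences was not tested. In brainstem-labelled mutants 0.0422% of genes and no member passed, with 8 members at an unadjusted p under 0.05. The smallest p there belonged to Gpr65, with 14.3 ± 3.37 CPM in end-stage and 2.67 ± 3.26 CPM in 2-month mutants, to Adgre1 (363 ± 38 and 527 ± 44.8 CPM) and to Gpr165 (20.5 ± 0.0333 and 51.5 ± 7.61 CPM).

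Genotype differences were found mainly in cortex-labelled libraries. At 2 months 5.45% of all genes passed there (3.64% higher and 1.81% lower in mutants). Among members 6 of 47 passed (12.8%): Gpr34, Gpr183, Gpr165 and Gpr155 fell in mutants, and Gpr35 and Gpr84 rose. The median log2 difference was 0.19 over members and -0.01 over all genes.

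Gpr34 had 1014, 816 and 1231 CPM in the 2-month mutants, against 2558, 2640 and 2915 CPM in the controls. Every mutant was below every control, and the fall was -1.41 ± 0.18 on the log2 scale (SE, n = 3 mice each, edgeR adjusted p = 0.000522). The oxysterol receptor Gpr183 had 336, 323 and 376 CPM in mutants, against 659, 698 and 648 CPM in controls (log2 difference -0.95 ± 0.14 SE, edgeR adjusted p = 0.00103). The spread within each group was small next to the gap between them.

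Gpr165 had 10.1, 8.82 and 9.21 CPM in 2-month mutants, against 57.1, 25.9 and 61.8 CPM in controls (log2 difference -2.36 ± 0.46 SE, edgeR adjusted p = 0.00499). Gpr155, the lysosomal cholesterol sensor, had 149, 76.6 and 157 CPM in mutants, against 250, 202 and 256 CPM in controls (log2 difference -0.89 ± 0.22 SE, edgeR adjusted p = 0.0217). Controls were again all higher, with 1 mutant, M2621, well below the other two. The calls of Gpr34, Gpr183 and Gpr165 held without each of the 10 mice in turn, and that of Gpr155 was lost without M2618 or M2633 (log2 differences of -1.07 to -0.62 over the 10) and in a fit of the 2 groups alone (edgeR adjusted p = 0.0774).

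The receptors that rose belong to the lipid and metabolite group, as do Gpr34 and Gpr183, which fell. Gpr84 had 352, 467 and 256 CPM in 2-month mutants, against 124, 139 and 83.0 CPM in controls (log2 difference 1.64 ± 0.41 SE, edgeR adjusted p = 0.0260). Gpr35 had 89.3, 62.4 and 81.9 CPM in mutants, against 31.3, 35.8 and 27.5 CPM in controls (log2 difference 1.30 ± 0.31 SE, edgeR adjusted p = 0.0165). Neither pair of groups overlapped, but the Gpr84 call was lost without M2617, M2618, M2621, M2629 or M2633 (1.40 to 1.82 on the log2 scale) and the Gpr35 call without M2618, M2624 or M2633 (1.18 to 1.44). Of the exons of Gpr84, 39.5% overlap an antisense gene that had 0 counts.

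By the genotype in the sample records no member passed at 2 months. Mutant minus control was then 0.58 for Gpr34, 0.31 for Gpr183, 1.51 for Gpr165, 0.63 for Gpr155, -0.41 for Gpr35 and -1.05 for Gpr84 in cortex-labelled libraries, each on the log2 scale with the sign turned round.

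Monocyte and endothelial markers moved with genotype in these libraries. Ly6c2, Ccr2, Plac8 and Ms4a4c summed to 151 to 196 CPM in the 2-month cortex-labelled mutants, against 6.83 to 21 CPM in controls, mostly from Plac8 and Ms4a4c. The defining monocyte genes Ly6c2 and Ccr2 were at most 1.13 and 1.49 CPM in those mutants. Endothelial markers summed to 37.5 to 63.3 CPM in mutants and 19.2 to 29.9 CPM in controls, mostly from Pecam1. Microglial markers summed to 25202 to 26599 CPM in mutants and 25591 to 27927 CPM in controls, but single genes moved in opposite directions. P2ry12 (2260 to 3491 against 5764 to 6508 CPM) and Sall1 (224 to 299 against 373 to 464 CPM) were lower in mutants. Csf1r (10596 to 11604 against 7235 to 10120 CPM) and Tmem119 (8722 to 10213 against 7192 to 8656 CPM) were higher. Fcrls and Siglech overlapped between the groups. The part of these other cells in the receptor differences was not tested.

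At end-stage the cortex-labelled libraries gave calls in 4.01% of all genes (1.83% higher and 2.18% lower in mutants) and in 7 of 47 members (14.9%). Gpr165, Gpr183 and Gpr34 were 3 of the 4 that fell in mutants, and Gpr83, Gpr35 and Gpr18 rose. Of these, Gpr34, Gpr183, Gpr165 and Gpr35 had also been called at 2 months, in the same direction and in other mice. They made up 57.1% of the end-stage and 66.7% of the 2-month member calls. The same shares over all genes are not given here, so this repeat is not shown to be particular to the receptors.

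Gpr165 had 0.654 and 0 CPM in the end-stage mutants, against 32.2 and 9.99 CPM in the controls M1375 and M1521 (log2 difference -5.87 ± 0.77 SE, edgeR adjusted p = 0.000315). The controls differ from each other, and both are well above the mutants. Gpr183 had 304 and 213 CPM in mutants, against 528 CPM in each control (log2 difference -1.03 ± 0.17 SE, edgeR adjusted p = 0.00229). Gpr34 had 1168 and 655 CPM in mutants, against 2042 and 2178 CPM in controls (log2 difference -1.21 ± 0.22 SE, edgeR adjusted p = 0.00459). The fall of Gpr34 was larger in M1524, and without that mouse the call was lost at a log2 difference of -0.86.

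Gpr35 had 47.1 and 111 CPM in end-stage mutants, against 26.7 and 27.6 CPM in controls (log2 difference 1.54 ± 0.38 SE, edgeR adjusted p = 0.0296). Gpr18 had 15.9 and 11.6 CPM in mutants, against 0.953 and 2.94 CPM in controls (log2 difference 2.79 ± 0.73 SE, edgeR adjusted p = 0.0406). Gpr18 and Gpr183 are neighbours on chromosome 14, 36.8 kb apart on the minus strand, and moved in opposite directions in these libraries. Both lie inside Ubac2 on the other strand without sharing its exons.

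Gpr83 had 10.7 and 4.49 CPM in end-stage mutants and no count in the controls, at least 63.2-fold higher with 3 counts over the control group as the floor (edgeR adjusted p = 0.0154). It was at or below 0.0542 CPM in the other 16 libraries, the end-stage brainstem-labelled mutants included. Gpr83 thus passed the low-count filter through the end-stage cortex-labelled mutants alone, so its p is not independent of the filter. Leaving out single mice ended the calls of Gpr35 (without M1375, M1521 or M1524, with log2 differences of 0.79 to 2.03), Gpr83 (without M1375, M1376 or M1521) and Gpr18 (7 of 10 mice, 2.20 to 3.84). With the sample records' genotypes, which reach end-stage through the shared spread alone, Gpr165 and Gpr83 were the 2 that passed. Gpr65 had 65.2 and 38.1 CPM in mutants, against 6.46 and 7.05 CPM in controls, and Gpr155 had 99.1 and 107 against 195 and 190 CPM. Neither pair of groups overlapped, and neither gene passed with all groups in the fit (edgeR adjusted p = 0.0777 and 0.0713). Both passed with DESeq2 (adjusted p = 0.0353 and 0.0222). Fitted on the 4 libraries of these 2 groups alone, Gpr65 and Gpr155 passed (edgeR adjusted p = 0.0103 and 0.0458), as did Gpr165 and Gpr83 (0.0395 and 0.0228). The calls of Gpr34, Gpr183, Gpr35 and Gpr18 were lost in that fit (edgeR adjusted p = 0.0758, 0.0578, 0.0836 and 0.0557).

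The most abundant adhesion receptors did not pass for genotype in any region or stage. Adgrg1 had 668 and 975 CPM in end-stage cortex-labelled mutants, against 1328 and 1477 CPM in controls (log2 difference -0.77 ± 0.27 SE, edgeR adjusted p = 0.134). Adgre1 had 389 and 367 CPM in those mutants, against 473 and 577 CPM in controls (edgeR adjusted p = 0.216). At 2 months their log2 differences in cortex-labelled libraries were -0.18 ± 0.22 and -0.15 ± 0.16.

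Other markers differed in these end-stage libraries as well. Markers of oligodendrocyte precursors summed to 37.3 to 88.1 CPM in cortex-labelled mutants, against 5.82 to 6.43 CPM in controls, nearly all from Cspg4 (37.0 and 87.8 CPM in mutants). Monocyte markers summed to 29.4 to 83.5 against 7.20 to 17.7 CPM, mostly from Ms4a4c (27.1 and 79 against 6.78 and 10.7 CPM). Ly6c2 was at 0. Plac8 (0.327 and 2.41 against 0.106 and 4.38 CPM) and Ccr2 (2.02 in both mutants against 0.318 and 2.6 CPM) overlapped. The T and NK markers summed to 0 to 0.327 CPM in mutants and 3.70 to 4.87 CPM in controls, with 4 of 5 markers at 0 in both. Neuronal markers summed to 2.41 to 3.32 CPM in mutants and 9 to 17.5 CPM in controls, and the 6 Hox genes to 0.327 to 0.976 CPM in mutants and 2.33 to 3.76 CPM in controls. Microglial markers summed to 16607 to 22517 CPM in mutants and 25630 to 27531 CPM in controls. Csf1r overlapped (8507 and 12405 against 10602 and 9288 CPM), and the other listed microglial markers were lower in both mutants. The part of all these markers in the receptor differences was not tested.

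**Figure D3:**
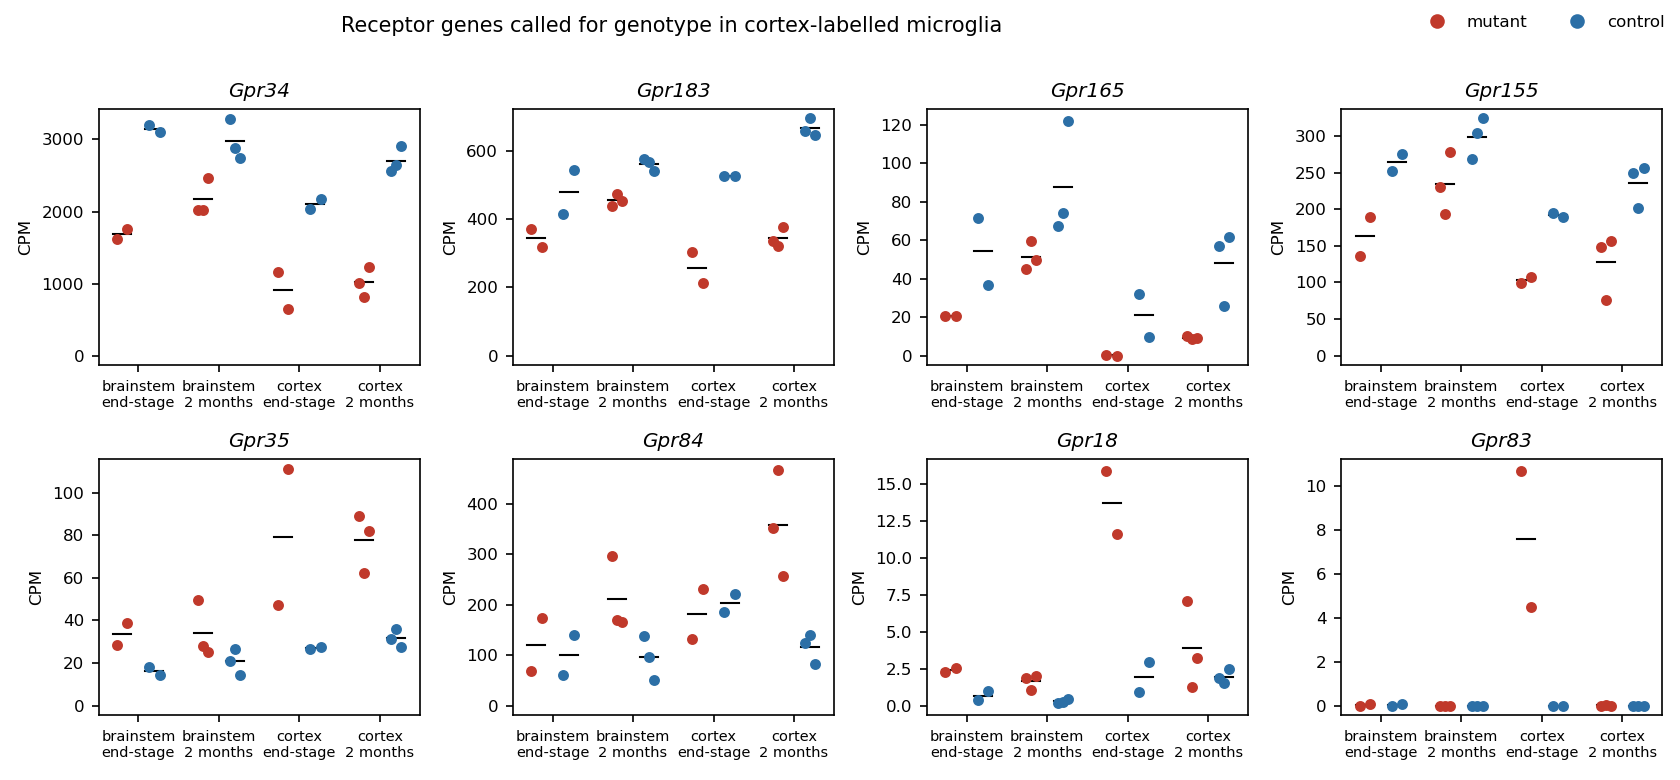
CPM of 8 members called for genotype in cortex-labelled libraries, 1 point per mouse with the group mean as a bar, mutant left of control, by region label and stage. In cortex-labelled libraries Gpr34 mutants lie between 655 and 1231 CPM and controls between 2042 and 2915 CPM, and Gpr83 is at 10.7 and 4.49 CPM in the end-stage cortex-labelled mutants and at most 0.0542 CPM elsewhere.

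In brainstem-labelled libraries few genes differed between genotypes, 0.0362% of all genes at 2 months and 0.151% at end-stage. The single member called was Gpr160, an orphan receptor, at 2 months. It had 61.9, 46.5 and 46.4 CPM in mutants, against 106, 96.3 and 104 CPM in controls (log2 difference -0.98 ± 0.16 SE, edgeR adjusted p = 0.0400). The groups do not overlap, but the call was lost without 7 of the 10 mice in turn (-1.14 to -0.91), M2617, M1376 and M1524 being the ones it did not need, and by the sample records the difference was 0.32. The members next by p at 2 months were Gpr18 (1.66 ± 0.503 CPM in mutants and 0.304 ± 0.151 CPM in controls, SD, n = 3 each) and Adgrl2 (76.9 ± 10.8 and 29.1 ± 5.37 CPM). Endothelial markers summed to 97.2 to 116 CPM in these mutants and 40.8 to 62.1 CPM in controls, and monocyte markers to 12.5 to 31.2 CPM in mutants and 6.31 to 7.83 CPM in controls. Their part in the difference of Gpr160 was not tested.

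At end-stage no member passed in brainstem-labelled libraries with edgeR, while 9 had an unadjusted p under 0.05 and DESeq2 called 2. Gpr34 had 1626 and 1759 CPM in mutants, against 3201 and 3101 CPM in controls (log2 difference -0.90 ± 0.22 SE, edgeR adjusted p = 0.0989). Gpr65 had 11.9 and 16.6 CPM in mutants, against 0.429 and 2.54 CPM in controls (adjusted p = 0.170), and Adgre1 had 336 and 390 against 448 and 667 CPM (adjusted p = 0.231). The members called in cortex-labelled libraries had these brainstem-labelled values at end-stage: -0.48 ± 0.17 for Gpr183, -1.40 ± 0.54 for Gpr165 and 1.05 ± 0.38 for Gpr35 on the log2 scale. Summed endothelial markers were 56.1 to 61.8 CPM in mutants and 41.7 to 53 CPM in controls. T and NK markers were 19.1 to 28.6 and 8.76 to 14.1 CPM, and oligodendrocyte precursor markers 2.49 to 3.16 and 0 to 0.415 CPM. These sums did not overlap between the groups, while those of the other marker lists did. The T and NK sum was Klrd1 alone. The endothelial sum was mostly Pecam1, which itself overlapped (61.0 and 51.1 CPM in mutants, 51.9 and 41.1 CPM in controls). The part of these markers was not tested.

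**Figure D4:**
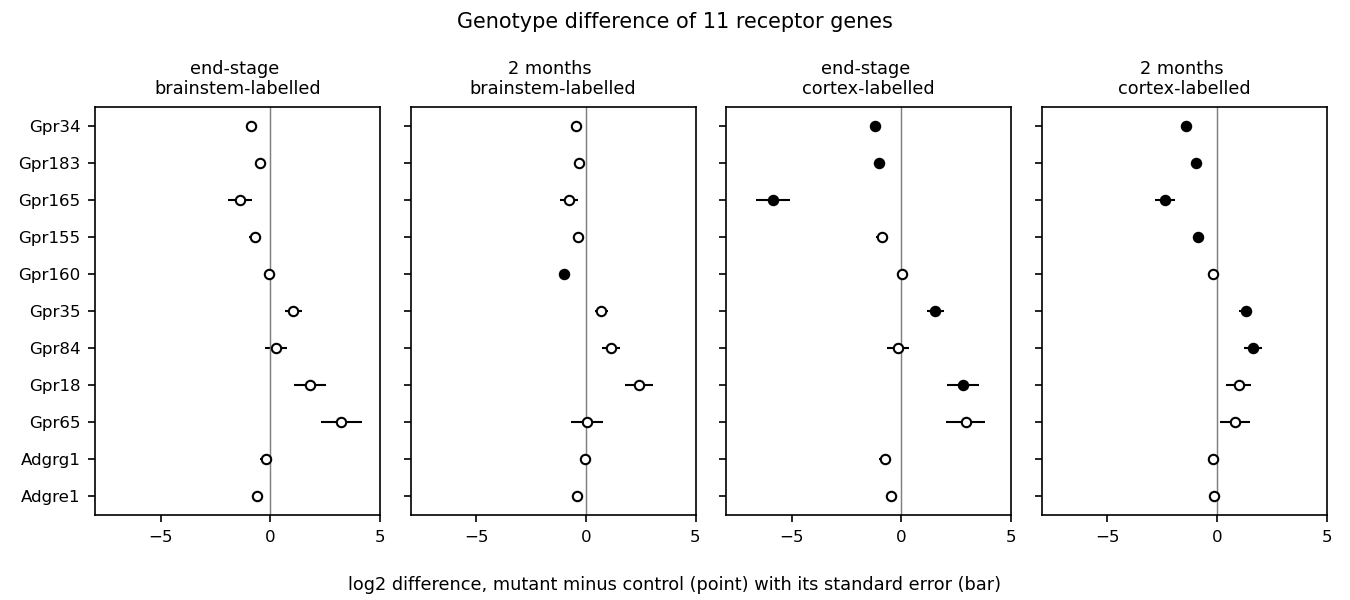
Log2 difference of mutant minus control with its standard error for 11 members in the 4 genotype comparisons, filled where the adjusted p was under 0.05. Gpr34, Gpr183 and Gpr165 lie left of 0 in all 4 panels and Gpr35 right of 0 in all 4, with filled points for these 4 genes in both cortex-labelled panels.

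Interaction terms tested if genotype differences were unequal between regions or stages, and no member passed any of the 4. Genotype by region gave 0.0844% of all genes at end-stage and 0.0241% at 2 months. Genotype by stage gave 0.00603% under the brainstem label and 0.265% under the cortex label. Between 2 and 7 members had an unadjusted p under 0.05 in each, and DESeq2 called 1 member, Gpr165, for genotype by region at end-stage and for genotype by stage under the cortex label. At end-stage the smallest p was that of Gpr165, where the mutant minus control difference was 4.47 ± 0.94 higher under the brainstem label on the log2 scale (edgeR adjusted p = 0.107). With mouse as a replicate block it passed (adjusted p = 0.0182). Gpr83 came next, with adjusted p = 0.716.

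At 2 months the smallest p belonged to Gpr34 (0.95 ± 0.25, edgeR adjusted p = 0.283), Gpr160 (-0.81 ± 0.23) and Gpr183 (0.65 ± 0.19), and with the replicate block the adjusted p of Gpr34 was 0.0572. Between stages in cortex-labelled libraries it was Gpr165 (-3.51 ± 0.89, edgeR adjusted p = 0.135), then Gpr84 (-1.80 ± 0.65) and Adgrl2 (-1.66 ± 0.63). Gpr84 had 132 and 231 CPM in end-stage cortex-labelled mutants, against 186 and 221 CPM in controls, where the groups overlap. In brainstem-labelled libraries the smallest p between stages were those of Gpr160 (0.91 ± 0.25), Gpr65 (3.19 ± 1.16) and Adgrl2 (-1.26 ± 0.61), with adjusted p of 0.808 and above.

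The genes that pass the receptors' signal on changed in part. Of 22 G protein subunits, all tested, 2 rose and 2 fell in end-stage cortex-labelled mutants, where 4.01% of all genes passed. Gng12 averaged 63.1 ± 3.63 CPM in mutants and 27.3 ± 1.68 CPM in controls, and Gna14 at 13.9 ± 2.11 and 0.342 ± 0.484 CPM. Gng2 was at 33.6 ± 6.80 and 65 ± 0.178 CPM, and Gna15, a subunit of blood cells that couples to many receptors, at 320 ± 81.2 and 599 ± 138 CPM (SD, n = 2 each). None of the 22 was called in the other 3 genotype comparisons. The median log2 difference over the list was -0.14, against 0.02 over all genes. Between regions, where 14% of all genes passed, Gnai3 and Gng2 were higher and Gng11 lower in brainstem-labelled libraries. Gng11 was near the counting limit, at 0 to 0.0612 CPM in brainstem-labelled and 0.137 to 1.16 CPM in cortex-labelled libraries. It passed the low-count filter through cortex-labelled libraries alone, so its p is not independent of the filter.

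Of 13 RGS genes 11 were tested, and 1 rose while 4 fell in end-stage cortex-labelled mutants, where 4.01% of all genes passed. Rgs1 averaged 56.1 ± 15.6 CPM in mutants and 16.8 ± 1.01 CPM in controls (log2 difference 1.74 ± 0.27 SE, edgeR adjusted p = 0.00159). Its genotype difference was higher at end-stage than at 2 months in cortex-labelled libraries (interaction 2.39 ± 0.35, edgeR adjusted p = 0.00632), a call that was lost by the sample records (adjusted p = 0.145). Rgs2 (324 ± 45.2 and 643 ± 18.9 CPM), Rgs10 (313 ± 2.68 and 672 ± 81.3 CPM), Rgs19 (169 ± 14.6 and 297 ± 28.4 CPM) and Rgs12 (2.22 ± 0.477 and 5.79 ± 0.0537 CPM) fell, and the median over the list was -0.21. At 2 months Rgs2 and Rgs19 fell in cortex-labelled mutants, where 5.45% of all genes passed, and no RGS gene rose. Rgs10 and Rgs12 were higher in brainstem-labelled libraries.

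Of 7 arrestins and receptor kinases, all tested, Grk3 was the one called for genotype. It was lower in 2-month cortex-labelled mutants, where 5.45% of all genes passed (8.87 ± 1.23 CPM, against 19.9 ± 0.894 CPM in controls, SD, n = 3 each). Of 27 genes for ligands or ligand-making enzymes 10 were tested, and 3 rose in 2-month cortex-labelled mutants, again beside 5.45% of all genes. Psap, whose product is the source of peptides proposed to act on Gpr37 and Gpr37l1, averaged 8466 ± 1502 CPM in mutants and 3345 ± 398 CPM in controls. Ch25h, the first enzyme on the way to the oxysterol that activates Gpr183, averaged 242 ± 119 CPM in mutants and 2.10 ± 0.568 CPM in controls (log2 difference 6.83 ± 1.31 SE, edgeR adjusted p = 0.00495). Thbs1 averaged 26.2 ± 9.38 and 5.43 ± 3.73 CPM. The median over these 10 was 0.63. Between regions, where 14% of all genes passed, Ch25h was lower in the brainstem-labelled library of 10 of 10 mice. The log2 difference was -3.01 ± 0.69 SE (edgeR adjusted p = 0.00741), a call lost by the sample records (edgeR adjusted p = 0.076). No gene of that list was called at end-stage, and by the sample records the 2-month calls of Psap, Ch25h, Thbs1, Grk3, Rgs2 and Rgs19 were lost. Between stages in cortex-labelled mutants, where 1.84% of all genes passed, Gng12, Rgs1 and Grk3 rose and Rgs12 fell at end-stage. Grk3 was at 21.7 ± 7.02 CPM in end-stage and 8.87 ± 1.23 CPM in 2-month mutants (SD, n = 2 and 3). By the sample records Gng12 kept that stage call (adjusted p = 0.0276), and Rgs1, Grk3 and Rgs12 lost it (edgeR adjusted p = 0.211, 0.7 and 0.228). Of the end-stage genotype calls named above, Gng12 and Rgs1 held by the sample records, and Gng2, Gna14, Gna15, Rgs2, Rgs10, Rgs19 and Rgs12 did not, nor did Gng2 between regions (adjusted p = 0.0564).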

How the data were processed

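RNA of microglia was amplified with the SMART-Seq kit and sequenced in pairs, per the labels' protocols. The deposited values are whole-number counts for each gene identifier, 1 column per library, not normalized by the authors. FastQC, Subread, edgeR and the mouse build mm10 are named in the submitters' processing notes, without roles or versions. The annotation, strand setting and treatment of reads with several matches are not given in the sources used here, so genes that overlap or have close copies can share reads. Identifiers were matched to symbols, biotypes, exon lengths and coordinates with GENCODE M21 of GRCm38 (55394 of 55487, with 0.00123% of counts in the 93 others).

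The tests used edgeR 4.0.16 (R 4.3.3): filterByExpr (16595 genes), TMM factors, 1 quasi-likelihood fit over 8 groups and 20 libraries, and Benjamini-Hochberg adjustment over all genes at 0.05. CPM uses TMM-scaled totals, and RPKM divides by exon length. Standard errors are the log2 difference over the root of F. Limits of detection and of a 0 cover counting error only, since reads are not independent molecules. Alternatives were the genotype of the sample records, DESeq2 1.42.0, RLE factors, no low-count filter, only the groups compared, each mouse left out, and mouse as a replicate block. The 2 libraries of a mouse share that animal, so the block is a true pairing, and their deviations from group means correlated at 0.101 to 0.265.

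The members and all gene lists were chosen with earlier results of these data known. Named members were Gpr34, Gpr84, Gpr165 and Adgrg1, the 12 with the highest mean log2 CPM, those called in each comparison (at most 6 rises and 6 falls) and, with fewer than 3 calls, the 3 smallest p. Members outside that rule are named where they lie in a group described whole, and Adgrg5, Gpr65, Gpr155 at end-stage and the calls of Adgre1, Gpr160 and Gpr108 between regions were added after their values were seen. Values of 2 members and of 1 microglial marker are not reported here, although both members are in the counts of members.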

Additional observations from a re-analysis of the deposited data

How the results depend on the processing

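The number of members called depends on the setting. By the genotype of the sample records it was 2 for genotype at end-stage in cortex-labelled libraries, 0 and 0 at 2 months in cortex-labelled and brainstem-labelled ones, 9 for region and 1 for genotype by stage in cortex-labelled ones. The 7 members called at 2 months then changed sign: Gpr34 0.58, Gpr183 0.31, Gpr165 1.51, Gpr155 0.63, Gpr35 -0.41 and Gpr84 -1.05 in cortex-labelled and Gpr160 0.32 in brainstem-labelled libraries (log2, mutant minus control). With no low-count filter the calls were 12 and 5 for genotype at end-stage in cortex-labelled and brainstem-labelled libraries, 7 at 2 months in brainstem-labelled ones, 2, 1, 6 and 3 for stage (controls cortex-labelled and brainstem-labelled, then mutants likewise), 1 and 3 for genotype by region at end-stage and 2 months, and 5 and 2 for genotype by stage in cortex-labelled and brainstem-labelled libraries. DESeq2 gave 2 and 3 for genotype in brainstem-labelled libraries at end-stage and 2 months, and 1 each for genotype by region at end-stage and genotype by stage in cortex-labelled ones. Fitted on only the groups compared, the calls were 4 for genotype at end-stage in cortex-labelled (Gpr165 and Gpr83, with Gpr65 and Gpr155 added and the others lost), 0 at 2 months in brainstem-labelled libraries and 1 for stage in cortex-labelled mutants. The causes of these shifts were not tested.

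With mouse as a replicate block, region gave 18 member calls and all 15 calls were kept, and genotype by region gave 1 at end-stage (Gpr165) and 0 at 2 months. Leaving out 1 mouse at a time gave 3 to 8 calls for genotype at end-stage and 3 to 6 at 2 months in cortex-labelled libraries, 0 to 1 at 2 months in brainstem-labelled ones, 11 to 15 for region and 1 to 3 for stage in cortex-labelled mutants. The lowest end-stage count of 3 came without M1375, M1521 or M1524, with 4 without M1376, and the lowest 2-month count without M2618 or M2633. The stage count of 1 came without M1376, M2621 or M2624. Of the 31 member calls, 30 held with RLE factors, 30 with DESeq2 and 29 with no filter. By the sample records 13 held, 11 were lost and 7 changed sign. Of the 16 calls that a fit of only the groups compared can give, 8 held and 8 were lost. Detection gave 36 members at 1 CPM in 2 libraries and 48 at 10 counts in 2 libraries, against 47 kept.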
